A study of Homo sapiens with 12 samples.

Results

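The genes described here are 37 named genes of the hypoxia response and of glycolysis, measured by RNA sequencing in hTERT-RPE1, an epithelial cell line from human retinal pigment tissue made immortal with telomerase. They were chosen by symbol and separated by role into 8 genes of oxygen sensing and related oxygen-dependent enzymes, 13 glycolytic enzymes, 5 genes of glycolytic control and the lactate branch, 2 glucose carriers, 3 genes of pH control and 6 other hypoxia targets. Each symbol had 1 row among the 53361 rows of the table, and all 37 passed the filter on low values, which kept 30712 rows. All groups came from this 1 line: 3 libraries from untreated cells (control), 3 from cells given 0.5 µM reversine for 24 h and then washed and harvested 48 h later, 3 that followed 6 h in 0.1 µM bafilomycin A1 (BafA1), and 3 that followed 24 h in 1 µM MG132. Reversine inhibits the kinase Mps1, so that chromosomes missegregate; BafA1 inhibits the proton pump that acidifies lysosomes; MG132 inhibits the proteasome. No vehicle or harvest time is given for the control cells in the labels, which also do not say whether the libraries of a group are separate cultures; the spread behind each p-value is that between libraries and may be technical. Cells exposed to reversine were harvested after a recovery period, and each drug had its own exposure time.

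Cells sense oxygen through prolyl hydroxylases of the EGLN family, which use oxygen and iron to mark the HIF alpha subunits HIF1A and EPAS1 for binding by VHL and destruction by the proteasome. When the mark is missing, HIF alpha pairs with ARNT, binds DNA at a short core sequence and raises genes for glucose uptake, glycolysis, lactate and proton export, and blood vessel growth. Several targets, among them EGLN1, EGLN3 and KDM3A, are themselves oxygen-dependent enzymes. HIF alpha is controlled mainly as a protein, which RNA sequencing does not measure. Glycolysis turns glucose into pyruvate in the cytosol, and LDHA then reduces pyruvate to lactate; the retinal pigment epithelium lies against the choroid blood supply and passes glucose on to the photoreceptors.

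Values are the authors' FPKM, fragments scaled to transcript length and to the mapped fragments of the library, so levels can be set side by side between genes. Differences are log2 differences of FPKM + 1, with the standard error (SE) and Benjamini-Hochberg adjusted p of the limma trend method over all 30712 rows, in 1 fit of the 12 libraries; a gene was called at an adjusted p under 0.05. Read counts are unknown. Relative depth was estimated from 7443 rows that stayed at a low level in all libraries, on the assumption that they held few or no reads. It ran from 0.87 to 1 in controls, from 0.79 to 1 after reversine, from 0.66 (BafA1 2) to 0.82 after BafA1 and from 0.76 to 0.86 after MG132. In 4 libraries (reversine 1, BafA1 3, MG132 2 and MG132 3) levels over 10220 well measured rows fell with the GC content of the transcript, and in the other 8 they rose. Calls against control that are lost or gained without these libraries are given with their value without them. A further fit, corrected for GC content and transcript length, used only the 10220 well measured rows. Its adjusted p is over those rows and not over all 30712. Calls gained or lost after this GC correction therefore mix the correction with the change of rows, and the part of each is not given. Mitochondrial transcripts made up 2.7% to 20.4% of the summed FPKM, the most in MG132 3. Of 12 markers of retinal pigment epithelium 9 reached 1 FPKM in a library; the defining marker RPE65 stayed at 0.04 to 0.06 FPKM, at the floor, while the mesenchymal marker VIM stood at 3336 to 25592 FPKM. After MG132 the summed level of these 12 markers was 52.1 to 55 FPKM, against 72.4 to 81.9 in controls. RDH5 had a mean of 33.2 FPKM in controls and 14.2 after MG132, and MITF and OTX2 also had lower means. RLBP1, BEST1, TYR, TYRP1, PMEL, LRAT, TTR and SERPINF1 had higher means after MG132, and RPE65 an equal one. The sum of 6 markers of other epithelia was 13.2 to 17.7 FPKM after MG132 against 8.33 to 9.76. That of 7 fibroblast and mesenchyme markers was 7129 to 16916 after MG132 and 5040 to 14424 after reversine, against 18785 to 27902. Most of this sum was VIM, with a mean of 21382 FPKM in controls and 8994 after MG132. THY1, COL1A1 and PDGFRB also had lower means after MG132 than in controls, but COL3A1, COL1A2 and FN1 had higher ones. The part of these shifts in the MG132 and reversine results was not tested. Levels of GAPDH, PGK1, PGAM1, ENO1, TPI1, LDHA and ALDOA are less certain than their size implies, because these genes have processed pseudogenes and reads that match several genes are divided by estimation.

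Against control, 2 of the 37 genes (5.41%) were called after reversine, both higher, where 2.09% of all rows were called (0.801% higher). After BafA1 6 genes (16.2%) were called, all higher, against 0.264% of all rows (0.202% higher). After MG132 16 genes (43.2%) were called, 5 higher and 11 lower, against 14.8% of all rows (7.14% higher and 7.67% lower). Reversine gave the 37 genes a median log2 difference of 0.17, BafA1 one of 0.46 and MG132 one of -0.34, beside medians over all rows of 0.09, 0.14 and 0.04. At an unadjusted p under 0.05 of the same limma fit, 17 members differed after reversine (13 higher), 22 after BafA1 (all higher) and 24 after MG132 (9 higher), as did 3631, 2187 and 12586 of all rows. All 3 comparisons use the same 3 control libraries. In 26 of the 37 genes every BafA1 library lay above every control, as it did in 15.7% of all rows. In all, 16 of the 37 genes were called against control in none of them: HIF1A, EPAS1, EGLN1, EGLN3, P4HA1, HK1, GPI, PFKP, ALDOA, ALDOC, GAPDH, PGK1, PFKFB3, PDK3, CA12 and ANKRD37.

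Counts of called members after reversine and after BafA1 moved with the fit. After reversine the count was 1 without any 1 control, reversine 2 or MG132 3 and 4 without reversine 1 or MG132 1. It was 0 when reversine and control were fitted alone, 7 without the 4 libraries whose levels fell with GC content (which leaves MG132 with 1 library, assumed to vary like the other groups), 12 after a correction for GC content and length, and 13 with libraries weighted by their spread. After BafA1 the count was 3 without BafA1 1, BafA1 2 or any 1 control, 4 without BafA1 3 and up to 8 in the other fits with 1 library left out. It was 4 with the 2 groups alone, 6 without those 4 libraries, 16 after the correction and 18 with weights. After MG132 the count was 22 without MG132 1, 11 without MG132 2 or MG132 3, and 25 with weights. The share of all rows called in each alternative fit is not given, here or in later paragraphs. These counts therefore show how far the calls depend on the fit, and are not to be set against the shares of the main fit. No called gene changed direction under any of the 21 alternatives. The correction (with its smaller set of rows), the weights or both added calls against control. After reversine these were EPAS1, KDM3A, P4HA1, P4HA2, PFKP, ALDOC, PGK1, SLC2A3, CA9, SLC16A3, VEGFA, NDRG1 and DDIT4. PFKP and SLC16A3 were lower, the rest higher. After BafA1 they were EGLN1, P4HA1, P4HA2, HK2, ALDOC, TPI1, PGK1, ENO2, PFKFB3, LDHA, SLC2A3, ADM and ANGPTL4, all higher. After MG132 EGLN3, KDM3A, P4HA1, GPI and PGK1 were added higher, and HIF1A, PFKP, ALDOC, GAPDH, PDK1, PFKFB4, CA9 and ANKRD37 lower.

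**Figure D1:**
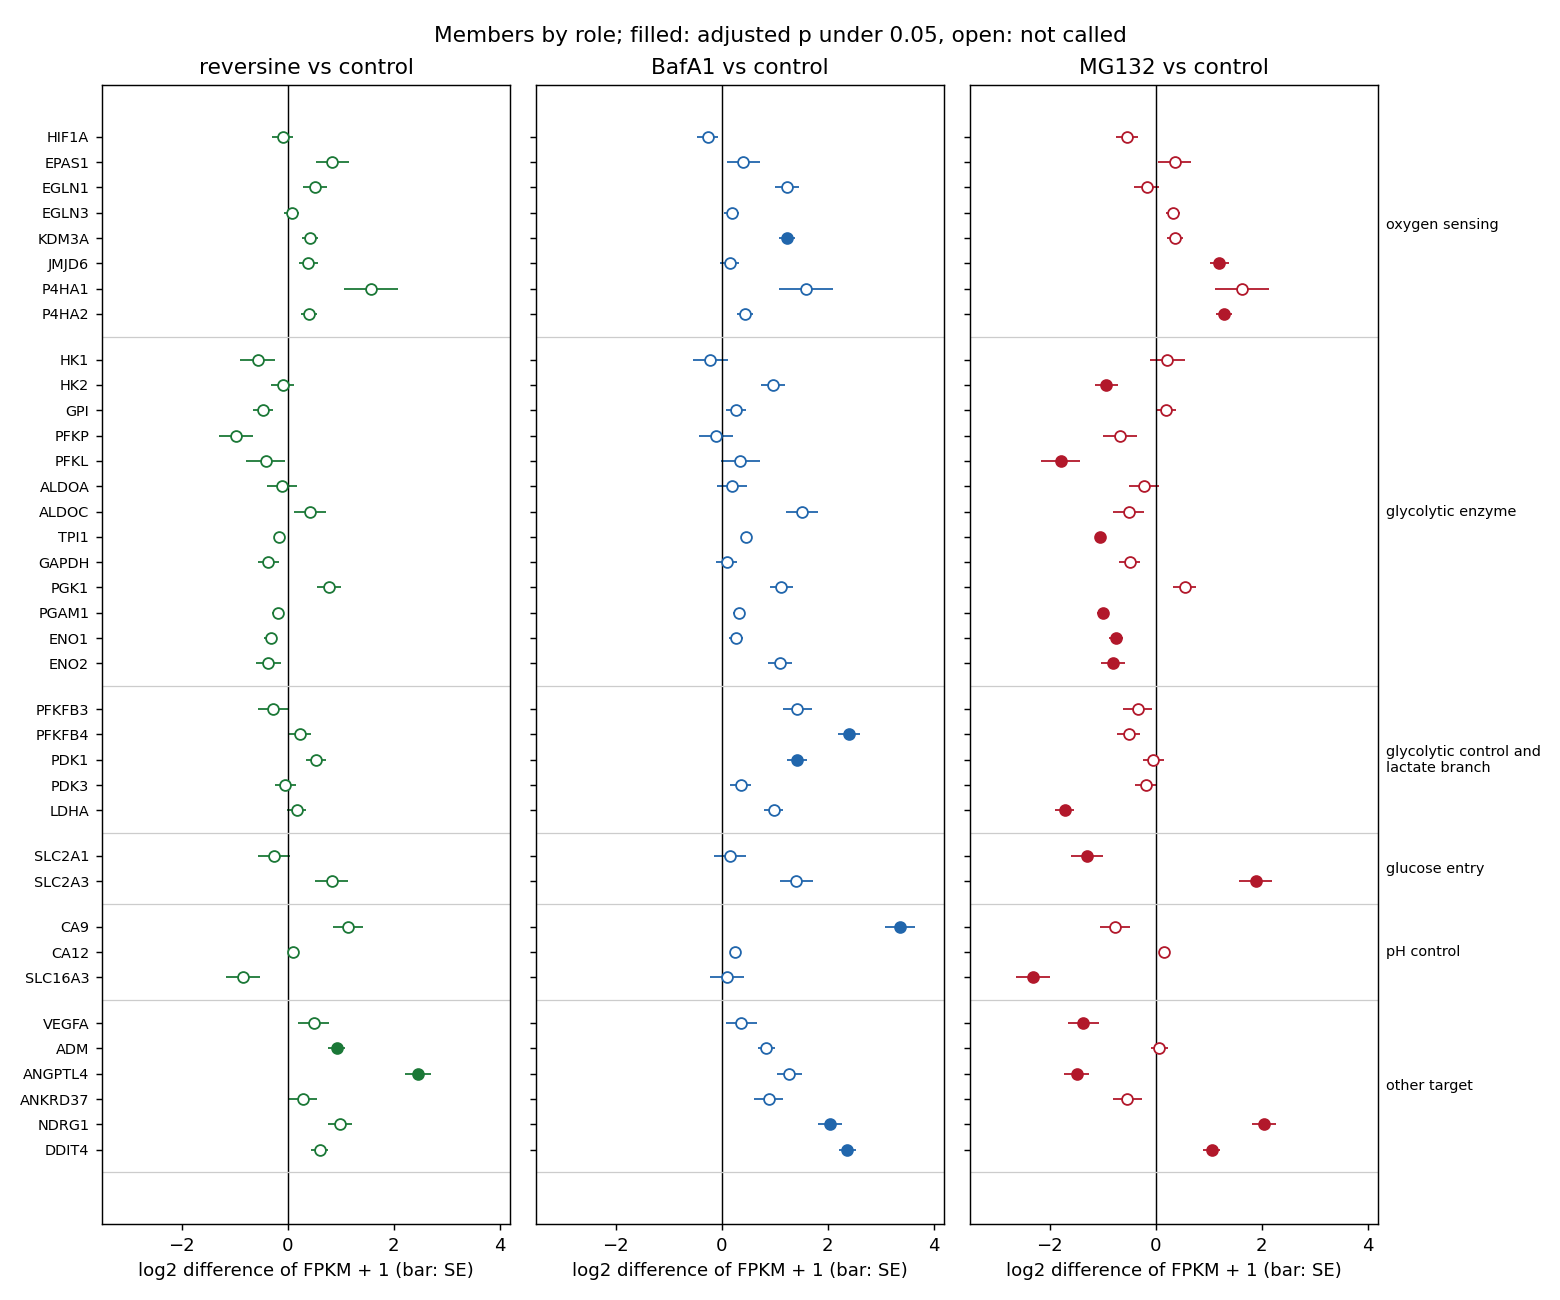
Log2 difference from control (FPKM + 1) of each of the 37 genes after reversine, BafA1 and MG132, in rows grouped by role; points are the fitted differences, bars 1 SE either side, filled points genes called at an adjusted p under 0.05 and open points genes not called. CA9 after BafA1 lies farthest to the right at 3.36 and SLC16A3 after MG132 farthest to the left at -2.32.

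The DNA letters to which HIF binds are short. The promoters of the genes called higher after BafA1 are printed here to show where these letters stand. That of LDHA is added as an example of the genes that fell after MG132 and differed between BafA1 and MG132. The stretches run from 250 bases before to 50 bases from the transcription start, in the direction of the gene, from RefSeq on build GRCh38.p14, which is not the hg19 build of the expression table. Capitals mark each ACGTG or GCGTG on either strand (CACGT or CACGC where the match is on the opposite strand). CA9 lies at chr9:35673678-35673977 on the plus strand, PFKFB4 at chr3:48556754-48557053 on the minus strand, DDIT4 at chr10:72273674-72273973 on the plus strand, PDK1 at chr2:172555840-172556139 on the plus strand, KDM3A at chr2:86441121-86441420 on the plus strand and LDHA at chr11:18394313-18394612 on the plus strand. NDRG1 was the only gene called higher after BafA1 for which no promoter was available.
CA9: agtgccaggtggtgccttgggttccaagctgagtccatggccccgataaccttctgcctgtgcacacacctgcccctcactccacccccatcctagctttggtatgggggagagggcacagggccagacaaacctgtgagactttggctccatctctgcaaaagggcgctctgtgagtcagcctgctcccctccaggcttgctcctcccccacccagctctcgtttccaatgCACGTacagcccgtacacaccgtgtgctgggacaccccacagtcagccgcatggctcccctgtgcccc
PFKFB4: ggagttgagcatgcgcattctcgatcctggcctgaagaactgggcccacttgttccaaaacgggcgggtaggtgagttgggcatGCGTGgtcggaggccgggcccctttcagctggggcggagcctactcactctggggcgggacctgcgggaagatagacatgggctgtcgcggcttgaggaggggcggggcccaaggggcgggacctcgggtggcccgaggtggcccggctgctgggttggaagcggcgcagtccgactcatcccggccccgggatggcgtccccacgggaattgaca
DDIT4: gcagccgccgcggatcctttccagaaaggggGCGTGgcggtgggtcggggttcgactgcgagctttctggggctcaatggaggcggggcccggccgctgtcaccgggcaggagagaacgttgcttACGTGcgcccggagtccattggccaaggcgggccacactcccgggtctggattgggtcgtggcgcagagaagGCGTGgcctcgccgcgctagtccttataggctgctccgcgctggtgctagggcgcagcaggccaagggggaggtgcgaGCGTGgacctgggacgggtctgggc
PDK1: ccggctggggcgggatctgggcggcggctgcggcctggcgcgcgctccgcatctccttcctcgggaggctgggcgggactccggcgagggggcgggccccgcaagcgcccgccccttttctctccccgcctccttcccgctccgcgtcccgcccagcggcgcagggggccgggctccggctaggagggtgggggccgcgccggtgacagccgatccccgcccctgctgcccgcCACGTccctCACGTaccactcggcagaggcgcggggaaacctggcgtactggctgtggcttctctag
KDM3A: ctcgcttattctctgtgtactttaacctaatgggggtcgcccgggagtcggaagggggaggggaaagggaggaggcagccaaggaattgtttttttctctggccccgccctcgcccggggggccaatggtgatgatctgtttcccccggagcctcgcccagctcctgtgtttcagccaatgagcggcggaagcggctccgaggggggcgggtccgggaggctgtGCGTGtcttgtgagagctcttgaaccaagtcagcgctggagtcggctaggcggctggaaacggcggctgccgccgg
LDHA: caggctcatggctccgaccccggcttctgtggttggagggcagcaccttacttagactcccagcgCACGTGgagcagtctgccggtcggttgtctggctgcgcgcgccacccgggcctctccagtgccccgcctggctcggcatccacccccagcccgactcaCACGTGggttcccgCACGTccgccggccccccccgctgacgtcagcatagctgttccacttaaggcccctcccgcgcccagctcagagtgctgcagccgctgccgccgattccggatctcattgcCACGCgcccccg

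The CA9 stretch held 1 match, with its first base 18 bases before the start, and PDK1 held 2, at 17 and 8 bases before it. LDHA held 6 matches, of which 4 come from 2 copies of CACGTG, a word that reads as ACGTG on both strands and is counted on each. DDIT4 held 4 matches, and PFKFB4 and KDM3A held 1 each, both GCGTG. The other genes called lower after MG132 also differed between BafA1 and MG132 and are not printed. Of these, HK2 had stretches with 3 and 6 matches, TPI1 with 0 and 2, and SLC16A3 with 0 to 3. ENO1 had 2 matches, PFKL, ENO2, SLC2A1 and ANGPTL4 had 1 each, and PGAM1 had 0. Promoters were matched for 33 of the 37 genes (not for JMJD6, NDRG1, SLC2A3 and VEGFA), 55 stretches in all, as some genes have several starts. PDK1, LDHA and KDM3A each have another stretch, not printed, with 0, 1 and 1 matches. Either word stood in 40 of the 55 (72.7%), against 48.4% of 35116 promoters of the same length and 66.7% of the 8565 promoters within the GC content of the middle of the members. The letters ACGTG alone stood in 41.8% of the members' promoters, in 21.4% of all and in 26.9% of those in that range of GC content. In 3 matched genes, EGLN3, P4HA2 and PGAM1, neither word was found in any stretch. A match describes the letters only and is no evidence of binding.

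Of the 8 genes of oxygen sensing and related enzymes, 1 rose after BafA1 (KDM3A) and 2 after MG132 (JMJD6 and P4HA2). These are neither HIF alpha subunits nor EGLN hydroxylases, of which none was called against control. None of the 8 was called after reversine, where 5 differed at an unadjusted limma p under 0.05. HIF1A, the HIF alpha subunit found in most cells, was read at 190, 176 and 225 FPKM in controls, 236, 193 and 137 after reversine, 152, 156 and 187 after BafA1 and 117, 143 and 145 after MG132. The MG132 libraries lay below every control, while the reversine and BafA1 libraries overlapped them. Its log2 difference after MG132 was -0.54 (SE 0.20), with an adjusted p of 0.0906, which passed the threshold without reversine 3 (adjusted p = 0.045), with median-ratio scaling and after the GC correction; over the alternatives the adjusted p ran from 0.000181 to 0.2.

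EPAS1, the alpha subunit also called HIF-2 alpha, read 33.9, 30 and 25.3 FPKM in controls and 39.3, 66.2 and 59.6 after reversine. All reversine libraries lay above the controls, but the difference of 0.84 (SE 0.31) did not pass (adjusted p = 0.279). It passed after the GC correction (adjusted p = 0.0129) and with weights (0.0111). EGLN1, the main HIF prolyl hydroxylase, read 11.7, 12.8 and 14.2 FPKM in controls, 19.8, 21.5 and 15.9 after reversine, 30.3, 27.5 and 37.8 after BafA1 and 8.64, 11.1 and 15.1 after MG132. The BafA1 libraries stood above every other library. The difference from control was 1.23 (SE 0.23, adjusted p = 0.0905), short of the threshold. It passed after the GC correction (adjusted p = 0.00406) and with weights (0.0102). The difference from MG132, 1.40 (SE 0.23, adjusted p = 0.0039), passed and was lost only with the 2 groups alone (0.0574). EGLN3, a hydroxylase that HIF strongly raises in many cells, stayed between 2.27 and 3.61 FPKM in the 12 libraries and was not called.

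KDM3A (ENSG00000115548), an oxygen-dependent histone demethylase, was read at 14.8, 15.8 and 17 FPKM in controls and at 40.4, 35.3 and 39.6 after BafA1. The groups were far apart, with every BafA1 library above every control by more than a factor of 2. The mean was 2.43-fold higher, a log2 difference of 1.23 (SE 0.15, adjusted p = 0.0137). This call was lost when any 1 of the 6 control and BafA1 libraries was left out (adjusted p from 0.0509 to 0.109), without the 4 libraries with falling GC trends, and with the 2 groups alone (range over the alternatives 0.00033 to 0.14). After reversine KDM3A read 20, 22.9 and 21.5 FPKM and after MG132 17.4, 21.8 and 23, above all controls in both groups but not called; without MG132 1 the MG132 difference passed, at 0.47 (adjusted p = 0.0202; 0.0022 to 0.759 over the alternatives).

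JMJD6 (ENSG00000070495), a nuclear hydroxylase of lysine residues, read 13.6, 16.5 and 14.1 FPKM in controls and 30.1, 39.1 and 36.6 after MG132. The MG132 libraries stood well above all others, and the difference was 1.2 (SE 0.18, adjusted p = 0.00215); it missed the threshold only without the 4 libraries with falling GC trends (adjusted p = 0.0526, range over the alternatives 0.000165 to 0.0526). P4HA2 (ENSG00000072682), a collagen prolyl hydroxylase of the endoplasmic reticulum, read 49.5, 46.1 and 49.2 FPKM in controls, 50.9, 68.5 and 77.3 after reversine, 68.4, 69.2 and 61.9 after BafA1 and 131, 115 and 113 after MG132. Its levels were lowest in the controls and highest after MG132, with no overlap between either and the other groups. The difference after MG132, 1.29 (SE 0.15, adjusted p = 0.000634), held under all alternatives. After reversine it was 0.41 (SE 0.15), which passed only without reversine 1 or with weights (adjusted p = 0.0378 and 0.0066; 0.0066 to 0.628 over the alternatives).

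P4HA1, the sister collagen hydroxylase, was the member with the widest scatter. It read 10, 13.6 and 10.1 FPKM in controls, 64.5, 27.8 and 23.7 after reversine, 27.6, 25 and 65.3 after BafA1 and 19.9, 47.2 and 50.8 after MG132. Every treated library was above every control, yet within each treated group the libraries with a falling GC trend were above the rest by more than a factor of 2. The differences of 1.57 (SE 0.51), 1.60 (SE 0.51) and 1.63 (SE 0.51) were not called. After MG132 the call was made without MG132 1 (adjusted p = 0.0104), without reversine 1 (0.0394) or without BafA1 3 (0.0486), with a range over the alternatives of 0.000942 to 0.215.

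The glucose carriers moved apart after MG132: SLC2A1 fell and SLC2A3 rose. SLC2A1 (GLUT1, ENSG00000117394), the main carrier of the retinal pigment epithelium, read 614, 543 and 713 FPKM in controls, 331, 706 and 592 after reversine, 771, 724 and 592 after BafA1 and 359, 224 and 200 after MG132. All MG132 libraries lay below all controls. The mean was 2.38-fold lower, a log2 difference of -1.29 (SE 0.30, adjusted p = 0.0192), but the call was lost without control 1, control 3, MG132 2 or MG132 3 (adjusted p from 0.0641 to 0.0804) and without the 4 libraries with falling GC trends (0.0647; 0.000274 to 0.0804 over the alternatives). SLC2A3 (GLUT3, ENSG00000059804), a carrier of high affinity, read 8.57, 7.14 and 8.12 FPKM in controls, 20.7, 11.7 and 13.4 after reversine, 20.8, 17.4 and 32.3 after BafA1 and 22.9, 39.2 and 37 after MG132. Each treated library exceeded each control. The rise of 4.16-fold after MG132, a log2 difference of 1.89 (SE 0.31, adjusted p = 0.00339), held under all alternatives, whereas 0.83 (SE 0.31) after reversine and 1.41 (SE 0.31) after BafA1 were not called.

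Among the 13 glycolytic enzymes 6 fell after MG132 (HK2, PFKL, TPI1, PGAM1, ENO1 and ENO2), and none rose. None was called after reversine or BafA1, where 4 and 6 differed at an unadjusted limma p under 0.05. TPI1 (ENSG00000111669), which interconverts the triose phosphates, had the smallest standard error of the enzymes: it read 1242, 1315 and 1306 FPKM in controls and 625, 624 and 616 after MG132. The MG132 libraries were nearly equal to each other and under the control of lowest level by a wide gap. The level was 2.07-fold lower, a log2 difference of -1.05 (SE 0.09, adjusted p = 0.000145). After BafA1 TPI1 read 1693, 1621 and 2041 FPKM, above all controls, with a difference of 0.46 (SE 0.09, adjusted p = 0.135) that was not called, and after reversine 1039, 1157 and 1259.

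PGAM1 (ENSG00000171314), the phosphoglycerate mutase of most tissues, read 737, 721 and 774 FPKM in controls, 558, 689 and 730 after reversine, 899, 859 and 1036 after BafA1 and 359, 384 and 376 after MG132. As with TPI1, BafA1 libraries lay above and MG132 libraries below all controls. The fall after MG132 was 2-fold, a log2 difference of -1.0 (SE 0.11, adjusted p = 0.000359). ENO1 (ENSG00000074800), the general enolase, read 1559, 1693 and 1715 FPKM in controls, 1322, 1332 and 1321 after reversine, 1868, 1750 and 2437 after BafA1 and 836, 1107 and 1057 after MG132. The 3 reversine libraries were close together and just below the controls, and the difference of -0.32 (SE 0.13, adjusted p = 0.386) was not called. After MG132 ENO1 fell by 0.74 on the log2 scale (SE 0.13, adjusted p = 0.00627), a call lost only with the 2 groups alone (adjusted p = 0.0562; 0.000768 to 0.0562 over the alternatives).

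ENO2 (ENSG00000111674), the enolase best known from neurons and raised by HIF, read 180, 191 and 192 FPKM in controls, 105, 188 and 158 after reversine, 439, 428 and 348 after BafA1 and 141, 96.2 and 91.4 after MG132. BafA1 libraries were all above and MG132 libraries all below the controls. The difference was 1.10 (SE 0.23, adjusted p = 0.144) after BafA1, not called, and -0.80 (SE 0.23, adjusted p = 0.0437) after MG132. The MG132 call was lost without any 1 of the 3 control or 3 BafA1 libraries, reversine 3, MG132 2 or MG132 3 (adjusted p from 0.0548 to 0.166), and without the 4 libraries with falling GC trends, where the difference was -0.41 (0.105). The BafA1 difference passed without reversine 1 (adjusted p = 0.0454) and without the 4 libraries with falling GC trends (0.0381); over the alternatives the ranges were 0.000501 to 0.166 and 0.00163 to 0.523. Among the neuron markers counted in these libraries, 4 of 5 reached 1 FPKM. Their summed level was 80.7 to 749 FPKM in controls and 216 to 483 after reversine. It was 448 to 640 FPKM after BafA1 and 151 to 652 after MG132. Most of this sum was TUBB3, with a mean of 496 FPKM in controls, where SYT1, the next highest, had 11.8. The part of these markers in the ENO2 values was not tested.

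HK2 (ENSG00000159399), the hexokinase that HIF raises, read 22.7, 20 and 22.2 FPKM in controls, 15.6, 23.7 and 22.2 after reversine, 48.4, 45.5 and 37 after BafA1 and 14.4, 9.28 and 9.48 after MG132. The BafA1 and MG132 groups lay on opposite sides of the controls without overlap. The difference after MG132 was -0.93 (SE 0.22, adjusted p = 0.0215); it was lost without control 1, control 3, MG132 2 or MG132 3 (adjusted p from 0.0794 to 0.099), without the 4 libraries with falling GC trends (0.157) and with the 2 groups alone (0.0559; 0.000355 to 0.157 over the alternatives). The difference of 0.97 (SE 0.22) after BafA1 was not called (adjusted p = 0.204). It passed after the GC correction (adjusted p = 0.00365) and with weights (0.00484). PFKL (ENSG00000141959), the liver-type phosphofructokinase, read 145, 131 and 159 FPKM in controls, 61.6, 139 and 150 after reversine and 64, 36.3 and 29.6 after MG132. Every MG132 library was under the controls, MG132 1 the highest of them, and reversine 1 was under the other reversine libraries by more than a factor of 2. The difference after MG132 was -1.79 (SE 0.37, adjusted p = 0.012), with the call lost without MG132 2 (adjusted p = 0.0526) or MG132 3 (0.0546; 8.58e-05 to 0.0546 over the alternatives).

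The other 7 enzymes were called against control in none of the comparisons. ALDOC, the brain-type aldolase and a HIF target, read 3.69, 3.54 and 3.74 FPKM in controls, 2.74, 7.33 and 6.68 after reversine, 12.5, 14.1 and 10.7 after BafA1 and 2.42, 2.11 and 2.31 after MG132. The BafA1 libraries stood clear of all others, 3.4-fold above control by the means, and the difference of 1.52 (SE 0.30, adjusted p = 0.117) passed only under alternatives: without reversine 1 (adjusted p = 0.0136), without the 4 libraries with falling GC trends (0.044), after the GC correction and with weights (0.00145 to 0.479 over the alternatives). PGK1, phosphoglycerate kinase, read 265, 305 and 265 FPKM in controls, 534, 465 and 441 after reversine, 544, 474 and 882 after BafA1 and 334, 455 and 440 after MG132. All 9 treated libraries lay above the controls, with differences of 0.78 (SE 0.22), 1.13 (SE 0.22) and 0.55 (SE 0.22). The difference after BafA1 passed after the GC correction (adjusted p = 0.00712) and with weights (0.0165). Those after reversine and MG132 passed without BafA1 3 (adjusted p = 0.0304 and 0.0359), and the MG132 one also without MG132 1 (0.0422). Without the 4 libraries with falling GC trends the reversine difference was 0.70 (adjusted p = 0.0383), and it was also called after the GC correction (0.0211) and with weights (0.0243); ranges over the alternatives were 0.0211 to 0.404 and 0.00829 to 0.336.

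GAPDH, the enzyme often used as a reference gene, read 12085, 12640 and 12587 FPKM in controls, 6647, 11296 and 12036 after reversine, 13408, 13016 and 13478 after BafA1 and 10720, 8335 and 7782 after MG132. All MG132 libraries and all reversine libraries were below the controls, and the BafA1 libraries above them. The difference after MG132, -0.49 (SE 0.20, adjusted p = 0.109), was called without reversine 1 (adjusted p = 0.0134) or MG132 1 (0.0454; 0.00114 to 0.609 over the alternatives). PFKP, the platelet-type phosphofructokinase, read 443, 358 and 438 FPKM in controls and 140, 245 and 265 after reversine, with 395, 221 and 198 after MG132. The reversine libraries lay under all controls, but -0.97 (SE 0.32, adjusted p = 0.213) was not called. It passed after the GC correction (adjusted p = 0.00936) and with weights (0.0395). The MG132 difference of -0.67 (SE 0.32) was called only without MG132 1 (adjusted p = 0.0246) and with weights (0.00217 to 0.851 over the alternatives). ALDOA, the aldolase of most tissues, stood between 1740 and 3564 FPKM in the 12 libraries, HK1, the general hexokinase, between 106 and 385, and GPI, glucose phosphate isomerase, between 63.3 and 169. GPI after MG132 was called without the 4 libraries with falling GC trends, at 0.56 (adjusted p = 0.0288), against 0.19 (SE 0.19, adjusted p = 0.431) with all libraries (0.0277 to 0.995 over the alternatives). The lowest value of ALDOA, HK1, GPI, PFKP and GAPDH among the reversine libraries was in reversine 1.

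**Figure D2:**
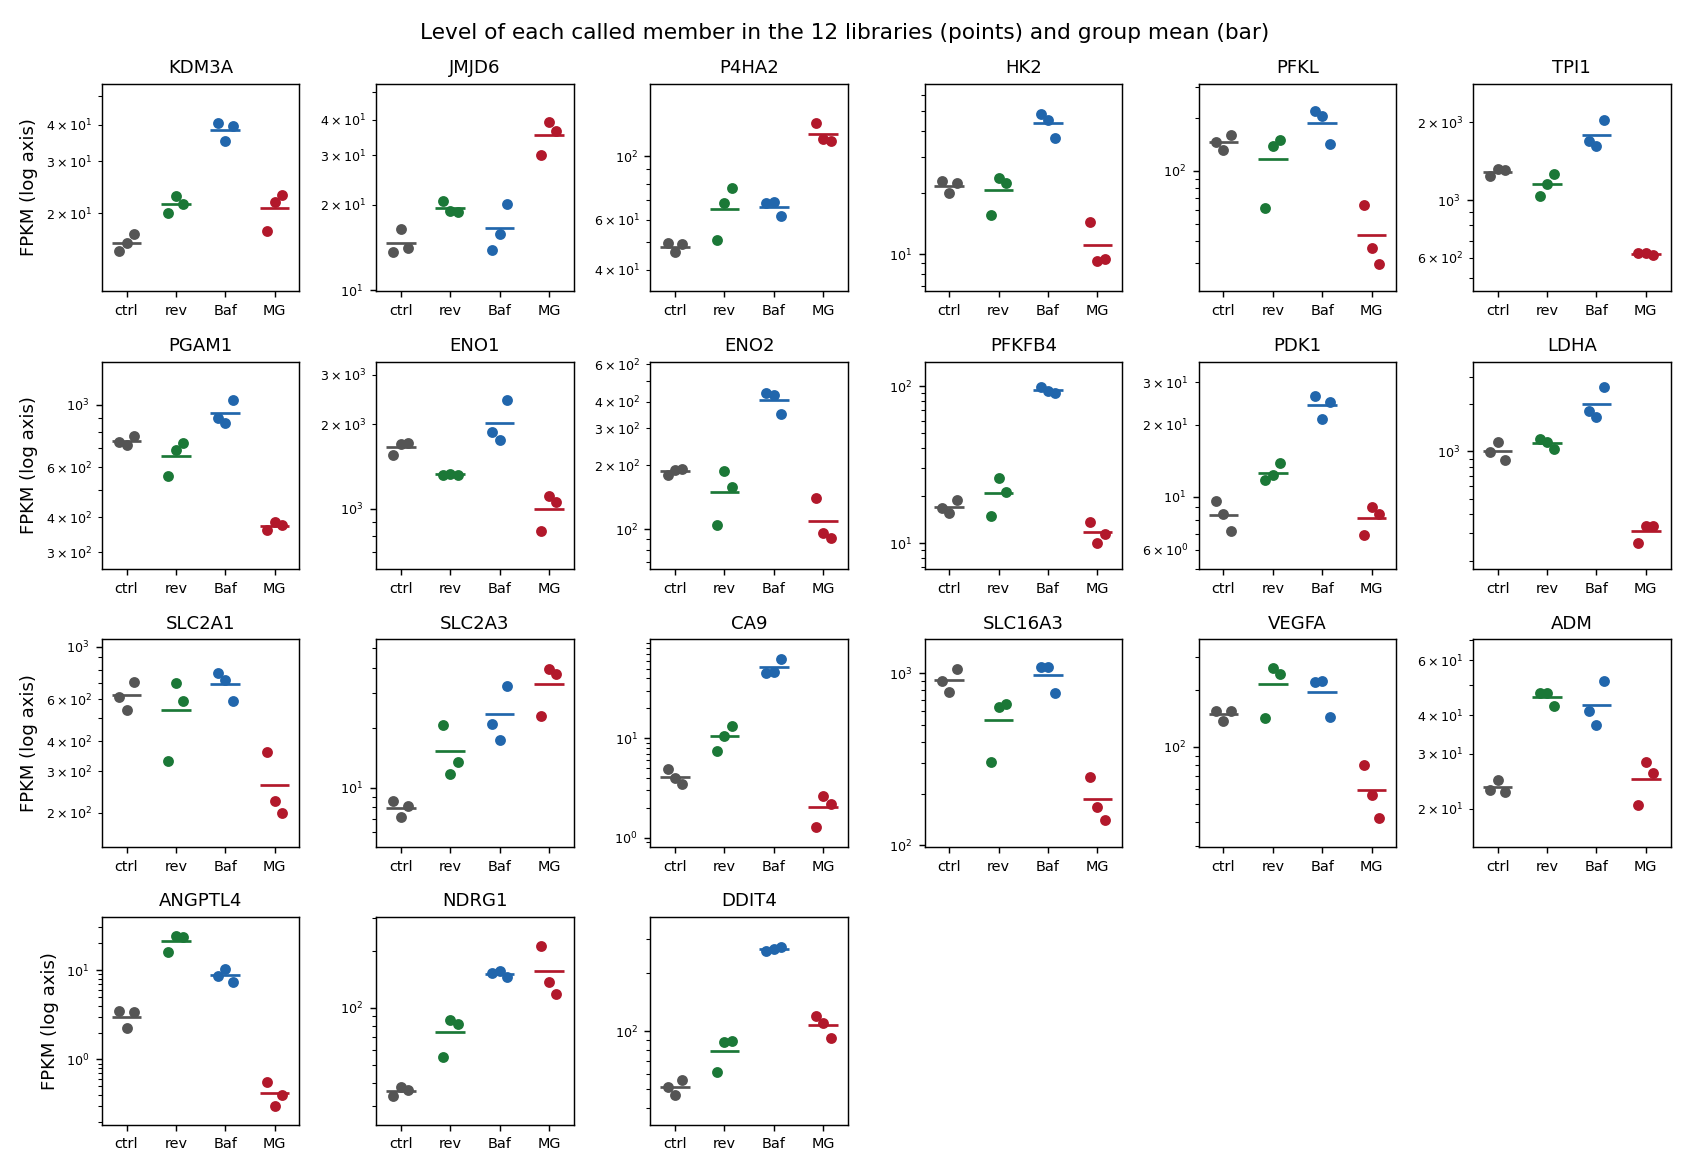
Level in FPKM, on a log axis, of each of the 21 genes called in at least 1 comparison with control, 1 panel a gene, with points for the 12 libraries by group and a bar at the group mean. CA9, PFKFB4 and DDIT4 are high in all BafA1 libraries, and SLC16A3, LDHA and PFKL are low in all MG132 libraries.

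In glycolytic control and the lactate branch, PFKFB4 and PDK1 rose after BafA1, LDHA fell after MG132, and nothing was called after reversine, where 1 of the 5 genes differed at an unadjusted limma p under 0.05. PFKFB4 (ENSG00000114268), which makes and breaks the phosphofructokinase activator fructose 2,6-bisphosphate, read 16.7, 15.6 and 18.7 FPKM in controls and 98.3, 93.1 and 90.8 after BafA1. The groups were widely separated and each was tight. The mean was 5.53-fold higher, a log2 difference of 2.40 (SE 0.21, adjusted p = 0.00162), called under all alternatives. After MG132 PFKFB4 read 13.7, 9.94 and 11.4 FPKM, below all controls and called only without MG132 1 (adjusted p = 0.0476) and with weights (0.00976 to 0.547 over the alternatives), and after reversine 14.9, 26.1 and 21.2. PFKFB3, the related enzyme that mostly makes the activator, read 32.6, 34.7 and 49.1 FPKM in controls and 101, 115 and 97.5 after BafA1. All BafA1 libraries exceeded all controls, but control 3 lay above the other controls, and the difference of 1.43 (SE 0.28, adjusted p = 0.119) was not called.

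PDK1 (ENSG00000152256), a kinase that shuts off pyruvate dehydrogenase, read 9.57, 8.45 and 7.16 FPKM in controls, 11.7, 12.3 and 13.8 after reversine, 26.4, 21 and 24.9 after BafA1 and 6.91, 9.01 and 8.42 after MG132. The BafA1 libraries were far above the rest and the reversine libraries lay between them and the controls. After BafA1 the mean was 2.87-fold higher, a log2 difference of 1.42 (SE 0.19, adjusted p = 0.0182). The call was lost without any 1 of the 6 control and BafA1 libraries (adjusted p from 0.0671 to 0.114), without the 4 libraries with falling GC trends (0.119) and with the 2 groups alone (0.172; 0.00148 to 0.172 over the alternatives). PDK3, another such kinase, stayed between 0.84 and 3.12 FPKM, near the filter, and was not called.

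LDHA (ENSG00000134333), the lactate dehydrogenase subunit that favours lactate production, read 990, 1155 and 885 FPKM in controls, 1194, 1154 and 1037 after reversine, 1806, 1654 and 2580 after BafA1 and 258, 335 and 332 after MG132. The MG132 libraries lay far below and the BafA1 libraries clearly above every control. The fall after MG132 was 3.27-fold, a log2 difference of -1.71 (SE 0.18, adjusted p = 0.000311), and held under all alternatives. After BafA1 the difference of 0.98 (SE 0.18, adjusted p = 0.0879) was not called. It passed after the GC correction (adjusted p = 0.0032) and with weights (0.0146). After reversine the difference was 0.17 (SE 0.18).

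Among the genes of pH control CA9 rose after BafA1 and SLC16A3 fell after MG132. CA9 (ENSG00000107159), a carbonic anhydrase on the cell surface and one of the most HIF-dependent genes known, read 4.86, 3.93 and 3.47 FPKM in controls, 7.44, 10.6 and 13.2 after reversine, 45.5, 46.5 and 62.4 after BafA1 and 1.27, 2.63 and 2.19 after MG132. No group overlapped another: MG132 was lowest, then control, reversine and BafA1. After BafA1 the mean was 12.6-fold that of controls, a log2 difference of 3.36 (SE 0.28, adjusted p = 0.00148), the widest of the 37 genes in any comparison with control, called under all alternatives. After reversine the difference of 1.14 (SE 0.28, adjusted p = 0.0814) was not called; it passed without MG132 1 (adjusted p = 0.0498) and without the 4 libraries with falling GC trends (0.0425; 0.00357 to 0.297 over the alternatives). After MG132 it was -0.77 (SE 0.28, adjusted p = 0.0887), not called.

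SLC16A3 (MCT4, ENSG00000141526), which carries lactate and protons out of the cell, read 899, 781 and 1054 FPKM in controls, 304, 639 and 661 after reversine, 1091, 1081 and 767 after BafA1 and 249, 167 and 141 after MG132. The MG132 libraries were far under all others except reversine 1, which was nearest to them. The mean was 4.9-fold lower after MG132, a log2 difference of -2.32 (SE 0.32, adjusted p = 0.00152), and the call held under all alternatives. After reversine all libraries were below the controls, with -0.84 (SE 0.32, adjusted p = 0.313), not called. This difference passed after the GC correction (adjusted p = 0.0114). CA12, another carbonic anhydrase, lay between 0.82 and 1.57 FPKM, near the filter; its level followed the inverse of library depth over the 12 libraries (Pearson r = 0.91, as a description), and multiplied by relative depth it ran only from 0.82 to 1.04.

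All 6 other targets except ANKRD37 were called in at least 1 comparison with control. ANGPTL4 (ENSG00000167772), a secreted inhibitor of lipoprotein lipase, read 3.44, 2.25 and 3.37 FPKM in controls, 16.1, 24.1 and 23.5 after reversine, 8.51, 10.3 and 7.36 after BafA1 and 0.56, 0.3 and 0.4 after MG132. No group overlapped another, and the order was MG132, control, BafA1 and reversine. After reversine the mean was 7.03-fold higher, a log2 difference of 2.46 (SE 0.24, adjusted p = 0.00122), called in every fit with a library left out and lost with the 2 groups alone (adjusted p = 0.0829; 7.16e-06 to 0.0829 over the alternatives). After MG132 it fell, with a log2 difference of -1.49 (SE 0.24, adjusted p = 0.00343). The means differed 7.19-fold, but all MG132 libraries were under 1 FPKM, where read counts are unknown and a fold is uncertain. At such levels the added 1 also makes the log2 difference smaller. After BafA1 the difference of 1.28 (SE 0.24, adjusted p = 0.0992) was not called.

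ADM (ENSG00000148926), the peptide adrenomedullin that widens blood vessels, read 22.9, 24.8 and 22.7 FPKM in controls, 47.1, 47 and 42.7 after reversine, 41.1, 37.1 and 51.5 after BafA1 and 20.5, 28.3 and 26.1 after MG132. Reversine and BafA1 libraries lay above all controls and MG132 libraries overlapped them. The rise after reversine was 1.94-fold, a log2 difference of 0.93 (SE 0.16, adjusted p = 0.0207). It was lost without any 1 control library, reversine 1, reversine 2 or MG132 3 (adjusted p from 0.0547 to 0.124) and with the 2 groups alone (0.152; 0.00103 to 0.152 over the alternatives). The BafA1 difference of 0.84 (SE 0.16), similar in size, was not called (adjusted p = 0.115), and the 2 treatments were not called different from each other (0.09 (SE 0.16, adjusted p = 0.948)). VEGFA (ENSG00000112715), the growth factor of blood vessels secreted by the retinal pigment epithelium, read 155, 137 and 155 FPKM in controls, 143, 260 and 244 after reversine, 220, 224 and 144 after BafA1 and 79.9, 55.8 and 42.1 after MG132. The MG132 libraries lay below all others; reversine 1 and BafA1 3 were at the level of the controls while the other libraries of their groups were above it. After reversine the difference of 0.49 (SE 0.29, adjusted p = 0.535) was not called; without the 4 libraries with falling GC trends it was 0.76 (adjusted p = 0.0257), and it was also called after the GC correction (0.0165) and with weights (0.0352; 0.0165 to 0.893 over the alternatives). The difference after MG132 was -1.36 (SE 0.29, adjusted p = 0.0139), lost without control 1, control 3, MG132 2 or MG132 3 (adjusted p from 0.0538 to 0.0601; 0.000236 to 0.0601 over the alternatives).

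DDIT4 (REDD1, ENSG00000168209), which inhibits mTORC1 and also responds to other stresses, read 51.3, 46.5 and 55.8 FPKM in controls, 61.2, 87.7 and 89.5 after reversine, 260, 268 and 275 after BafA1 and 120, 111 and 92.8 after MG132. The groups were fully separated, control lowest and BafA1 highest. The mean was 5.22-fold higher after BafA1, with a log2 difference of 2.37 (SE 0.16, adjusted p = 0.00101), and 2.11-fold higher after MG132, with 1.06 (SE 0.16, adjusted p = 0.00252); both held under all alternatives. After reversine 0.61 (SE 0.16, adjusted p = 0.11) was not called, and passed without reversine 1 (adjusted p = 0.0188) and without the 4 libraries with falling GC trends, at 0.78 (0.0373; 0.00109 to 0.437 over the alternatives).

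NDRG1 (ENSG00000104419), a stress-responsive gene also raised by iron depletion, read 34.1, 37.8 and 36.5 FPKM in controls, 54.5, 85.8 and 82 after reversine, 152, 157 and 145 after BafA1 and 212, 137 and 119 after MG132. Every treated library was above every control, and the BafA1 and MG132 groups overlapped. Both had a log2 difference of 2.04 (SE 0.23), with adjusted p = 0.00924 after BafA1 and 0.00046 after MG132. The BafA1 call was lost without any 1 control library, BafA1 1 or BafA1 2 (adjusted p from 0.0531 to 0.0718; 5.27e-05 to 0.0718 over the alternatives), and the MG132 call held under all. After reversine 0.99 (SE 0.23, adjusted p = 0.0669) was not called; it passed without reversine 1 (adjusted p = 0.0313) or MG132 1 (0.019), and without the 4 libraries with falling GC trends at 1.19 (0.0171; 0.000251 to 0.25 over the alternatives). ANKRD37, a small ankyrin repeat protein and HIF target, read 6.27, 7.09 and 8.25 FPKM in controls, 12.3, 12.1 and 18.8 after BafA1 and 4.18, 4.7 and 5.14 after MG132. It was higher than every control in all BafA1 libraries and lower in all MG132 libraries, without a call.

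Set directly against each other, BafA1 and MG132 differed in 23 of the 37 genes (62.2%), where 10.9% of all rows were called (6.37% higher and 4.49% lower after BafA1): 21 were higher after BafA1 and 2, JMJD6 and P4HA2, higher after MG132. The median difference of the members was 1.01. Without the 4 libraries with falling GC trends KDM3A, JMJD6, ADM and ANKRD37 lost their calls (adjusted p = 0.0527, 0.0783, 0.0635 and 0.076). Of the 23 calls 21 stood with any single library left out. The exceptions were SLC2A1 (lost without BafA1 1, BafA1 2, MG132 2 or MG132 3) and ADM (lost without BafA1 3 or MG132 3). With the 2 groups alone 18 were called. EGLN1, KDM3A, JMJD6, ADM and ANKRD37 were lost there (adjusted p = 0.0574, 0.0663, 0.0683, 0.136 and 0.0629). ADM was also lost after the GC correction (0.128). The widest differences were those of CA9, 4.13 (SE 0.28, adjusted p = 3.68e-05), PFKFB4, 2.92 (SE 0.21, adjusted p = 4.85e-05), and ANGPTL4, 2.77 (SE 0.24, adjusted p = 0.000129). LDHA was 6.53-fold and SLC16A3 5.27-fold higher after BafA1 by the means. Genes called here but in neither comparison with control were EGLN1 (1.40 (SE 0.23)), ALDOC (2.03 (SE 0.30)), PFKFB3 (1.77 (SE 0.28)) and ANKRD37 (1.42 (SE 0.27)); ADM, called after reversine only, differed by 0.77 (SE 0.16). NDRG1 differed by 0.00 (SE 0.23) (adjusted p = 0.991), with a 95% confidence interval of -0.51 to 0.51. The drugs were given for 6 h and 24 h, so agent and time cannot be told apart.

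Reversine and BafA1 differed in 7 members (18.9%, against 1.23% of all rows, 0.785% lower), all lower after reversine: KDM3A, TPI1, ENO2, PFKFB3, PFKFB4, CA9 and DDIT4. DDIT4 differed by -1.76 (SE 0.16, adjusted p = 0.00116), PFKFB4 by -2.16 (SE 0.21, adjusted p = 0.00149) and CA9 by -2.22 (SE 0.28, adjusted p = 0.00517); these 3 stood with any single library left out. The count was 3 without BafA1 1, 4 without BafA1 2 or reversine 3 and 11 without MG132 1. The 7 calls became 0 with the 2 groups alone and 3 without the 4 libraries with falling GC trends (CA9, KDM3A, TPI1 and PFKFB3 were lost, CA9 at an adjusted p of 0.05), and 19 (18 of them lower after reversine) after the GC correction. Reversine and MG132 differed in 11 members (29.7%, against 6.51% of all rows, 3.52% higher and 2.99% lower): TPI1, PGAM1, LDHA, CA9, SLC16A3, VEGFA, ADM and ANGPTL4 were higher and JMJD6, P4HA2 and NDRG1 lower after reversine. ANGPTL4 differed most, by 3.95 (SE 0.24, adjusted p = 4.26e-05), and LDHA by 1.88 (SE 0.18, adjusted p = 0.000352). With 1 library left out 7 of the 11 calls stood in every fit, all but those of JMJD6, SLC16A3, ADM and NDRG1. Without the 4 libraries with falling GC trends JMJD6, P4HA2 and ADM lost their calls. The count was 17 without reversine 1 and 20 without MG132 1, and 17, of which 16 were higher after reversine, with median-ratio scaling. It was 3 with the 2 groups alone.

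Because FPKM is per length, the balance between enzymes of the same step can be read within each library as a share of their summed FPKM. With 3 libraries a group, the smallest p an exact permutation test can give is 0.10, so these shares are described without a test. LDHA made up 59.3%, 57.4% and 55.4% of LDHA and LDHB in controls, 67%, 63.3% and 60.9% after reversine, 72.2%, 72.9% and 73.4% after BafA1 and 33.6%, 30.7% and 32% after MG132. The share was above control in every reversine and BafA1 library and lower in every MG132 library, with spreads of a few percentage points within a group. HK2, the minor hexokinase, made up 7.28% ± 0.598 (SD, n = 3) of HK1 and HK2 in controls, 15.4% ± 0.899 after BafA1 and 3.29% ± 0.563 after MG132. PFKFB4 made up 30.8% ± 3.14 of PFKFB3 and PFKFB4 in controls and 47.4% ± 2.45 after BafA1, with no overlap.

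Of the phosphofructokinase subunits, PFKL made up 23% ± 0.714 in controls and 9.66% ± 1.54 after MG132. The muscle-type PFKM made up 11.5% ± 1.27 in controls and 18.7%, 33.6% and 36.3% in MG132 1, MG132 2 and MG132 3. Reversine 1 had a PFKM share of 26.9%, against 16.3% and 16.1% in the other reversine libraries. BafA1 3 had 15.6%, against 9.49% and 10.7% in the other BafA1 libraries. In each treated group the libraries with a falling GC trend thus had the highest PFKM share and the lowest PFKL share. The part of that trend in these shares was not tested. SLC2A3 made up 1.27% ± 0.128 of the 2 glucose carriers in controls and 5.99%, 14.9% and 15.6% in the MG132 libraries, the lowest of them in MG132 1. SLC2A1 therefore remained the more abundant carrier RNA in all 12 libraries. As with PFKM, the libraries with a falling GC trend had the highest SLC2A3 share of each treated group. ALDOC stayed under 1% of aldolase RNA, at 0.128% ± 0.0117 in controls and 0.378% ± 0.0233 after BafA1.

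**Figure D3:**
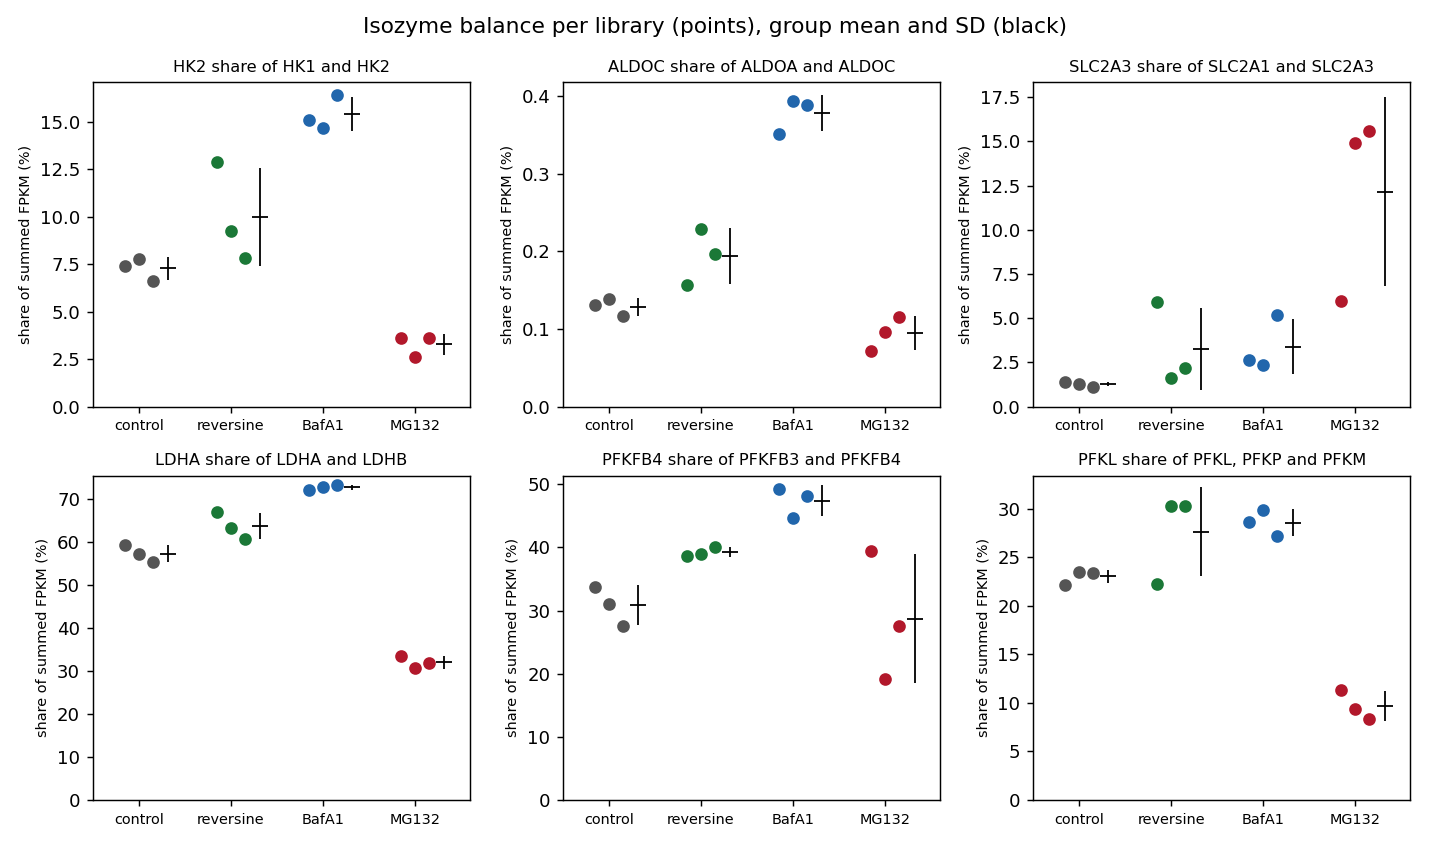
Share, in percent of the summed FPKM, of 1 enzyme or carrier within its pair or family in each library; points are libraries, black marks the group mean with its SD, and each panel has its own axis from 0. LDHA has a mean of 57.4% in controls, 32.1% after MG132 and 72.8% after BafA1, and HK2 stands at 15.4% after BafA1 against 7.28% in controls.

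Other genes of the same pathways were counted from 4 lists, to be read against the 2.09%, 0.264% and 14.8% of all rows called after reversine, BafA1 and MG132. Of 15 further HIF regulators (partners, VHL and related factors) none was called after reversine or BafA1 (2 and 1 at an unadjusted limma p under 0.05) and 1 after MG132 (up to 6 with a library left out). ARNT2, a partner of HIF alpha related to ARNT, fell to 4.84 ± 0.5 FPKM against 13.1 ± 0.794 in controls (log2 difference -1.28, SE 0.17, adjusted p = 0.00106). Of 19 further glycolysis genes that were tested none was called after reversine (2 at an unadjusted limma p under 0.05), 1 was higher after BafA1, and 4 were higher and 3 lower after MG132. PGM1, which links glucose 1-phosphate to glycolysis, rose after BafA1 to 61.5 ± 1.63 FPKM against 35.2 ± 1.56 in controls (log2 difference 0.79, SE 0.12, adjusted p = 0.0396), and fell after MG132 to 20.2 ± 0.238 FPKM against 35.2 ± 1.56 in controls (log2 difference -0.77, SE 0.12, adjusted p = 0.00295). PKM, the pyruvate kinase of most tissues, fell after MG132 to 1348 ± 236 FPKM against 3590 ± 496 in controls (log2 difference -1.42, SE 0.20, adjusted p = 0.00181). PFKM rose there to 122 ± 14.2 FPKM against 72.4 ± 8.5 in controls (log2 difference 0.74, SE 0.12, adjusted p = 0.00388) and HKDC1, a hexokinase-like enzyme, to 13.8 ± 2 FPKM against 4.75 ± 0.748 in controls (log2 difference 1.36, SE 0.24, adjusted p = 0.00512). The BafA1 call of PGM1 was lost without any 1 control, any 1 BafA1 library, reversine 2, reversine 3, MG132 2 or MG132 3 (adjusted p from 0.0578 to 0.296), with median-ratio scaling (0.0684), with no filter (0.124) and without the 4 libraries with falling GC trends (0.129). Those of PFKM and HKDC1 were lost only without the 4 libraries with falling GC trends (0.133 and 0.0711).

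Of 39 further HIF targets tested, 5 were higher and 0 lower after reversine, 12 higher and 1 lower after BafA1, and 10 higher and 9 lower after MG132; their median log2 differences were 0.49, 0.88 and 0.15. The 13 calls after BafA1 became 5 without control 1, control 3 or BafA1 1, 7 without control 2 or BafA1 3, 8 without BafA1 2 or MG132 2, and 2 without the 4 libraries with falling GC trends. The 5 after reversine were 4 to 6 with a library left out and 0 with the 2 groups alone. BHLHE40, a repressor that HIF raises, rose after all 3 treatments: after reversine to 46.4 ± 3.55 FPKM against 18.1 ± 2.24 in controls (log2 difference 1.32, SE 0.13, adjusted p = 0.00117), after BafA1 to a mean of 84.2 and after MG132 to 66.1 FPKM (adjusted p = 0.000372 and 3.78e-05). MXI1, a MYC antagonist, rose after reversine to 23.3 ± 2.87 FPKM against 10.4 ± 0.674 in controls (log2 difference 1.08, SE 0.15, adjusted p = 0.00562) and after BafA1 to 44.8 (adjusted p = 0.00111). ANKZF1, a factor of stalled ribosome rescue, rose after BafA1 to 54.6 ± 1.37 FPKM against 16.5 ± 1.59 in controls (log2 difference 1.67, SE 0.13, adjusted p = 0.00144). Without the 4 libraries with falling GC trends MXI1 and ANKZF1 just missed the threshold after BafA1 (adjusted p = 0.0507 for both), as MXI1 did after reversine (0.0556).

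HMOX1, heme oxygenase, which NRF2 also controls, rose after reversine to 92.3 ± 16.8 FPKM against 34 ± 4.69 in controls (log2 difference 1.41, SE 0.19, adjusted p = 0.00503) and after MG132 to 408 ± 71.2 FPKM against 34 ± 4.69 in controls (log2 difference 3.54, SE 0.19, adjusted p = 1.07e-05). Among the 9 listed targets lower after MG132 were IGFBP3, a carrier of insulin-like growth factors, at 19.7 ± 3.88 FPKM against 131 ± 19.2 in controls (log2 difference -2.68, SE 0.21, adjusted p = 6.74e-05), and LOXL2, which crosslinks collagen, at 83.8 ± 32.5 FPKM against 477 ± 58.5 in controls (log2 difference -2.55, SE 0.32, adjusted p = 0.000912). Of 17 further transport and pH genes tested, 1 was called after reversine, 2 after BafA1 and 3 after MG132, where the share of all rows called was 14.8%. CA11, a carbonic anhydrase relative, rose after reversine to 10.2 ± 0.911 FPKM against 3.32 ± 0.229 in controls (log2 difference 1.38, SE 0.21, adjusted p = 0.0104) and fell after MG132 to 1.54 ± 0.04 FPKM against 3.32 ± 0.229 in controls (log2 difference -0.76, SE 0.21, adjusted p = 0.0376). After BafA1 the sugar carrier SLC2A12 rose to 4.61 ± 0.416 FPKM against 1.41 ± 0.347 in controls (log2 difference 1.23, SE 0.19, adjusted p = 0.0396). A row with the symbol SLC2A6, whose identifier in the table (ENSG00000261768) may not be that of the usual SLC2A6 gene, rose to 3.04 ± 0.23 FPKM against 1.13 ± 0.181 in controls (log2 difference 0.92, SE 0.13, adjusted p = 0.022). After MG132 the sugar carrier SLC2A10 fell to 1.03 ± 0.0115 FPKM against 2.25 ± 0.34 in controls (log2 difference -0.67, SE 0.12, adjusted p = 0.00672). Several of these calls were lost when a single library was left out. CA11 after reversine was lost without control 1 or control 2 (adjusted p = 0.061 and 0.0608), and SLC2A6 and SLC2A12 after BafA1 and CA11 after MG132 were each lost without any 1 control library, among others. Without the 4 libraries with falling GC trends the calls of SLC2A6 (adjusted p = 0.0974), SLC2A12 (0.122), SLC2A10 (0.0697) and CA11 after MG132 (0.121) were lost.

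The members differ in GC content, and their scatter within groups followed it. Transcript GC content ran from 36.4% in HIF1A to 64.1% in PFKL, with a median of 52.7%. In reversine 1 the deviation of the 37 genes from the other 2 reversine libraries correlated with GC content at r = -0.68 (Spearman rho = -0.66), from 1.3 in P4HA1 to -1.21 in PFKL on the log2 scale. In MG132 1 it correlated at r = 0.56 (rho = 0.46), from -1.26 in P4HA1 to 0.95 in EPAS1. In BafA1 3 the correlation was -0.59 (rho = -0.51), with P4HA1 again the highest, at 1.28. In the controls it was between -0.38 and 0.22. These correlations run across genes of 1 library and carry no p. The GC trend thus moves with the scatter of PFKL, P4HA1, VEGFA and SLC16A3 within the treated groups; its part in differences between groups is shown only as far as the fits without those libraries and the GC-corrected fit go.

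**Figure D4:**
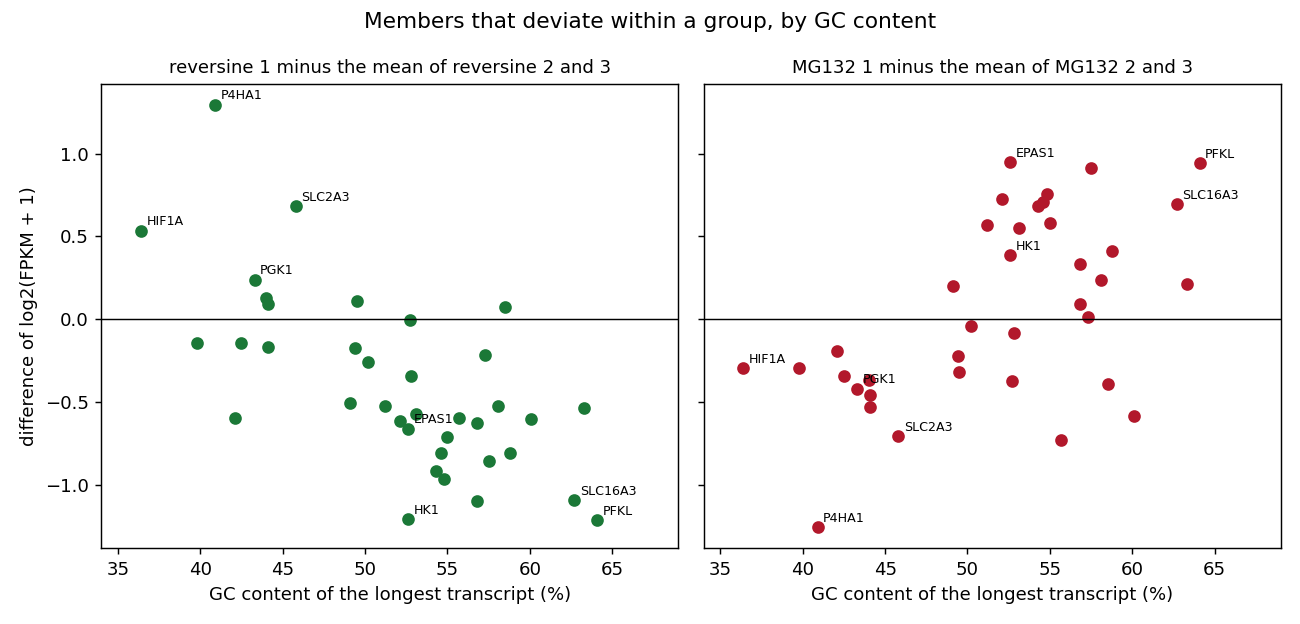
Difference of log2(FPKM + 1) of each of the 37 genes between reversine 1 (left) or MG132 1 (right) and the mean of the other 2 libraries of its group, against the GC content of its transcript in percent; each point is a gene. In the reversine 1 panel the points fall with GC content (r = -0.68), and in the MG132 1 panel they rise (r = 0.56).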

How the data were processed

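RNA from 12 hTERT-RPE1 libraries was selected with oligo(dT) and sequenced, per the labels' protocols; per the submitters' processing notes, the authors used RSEM 1.2.6 and Bowtie 1.0.0 with the genome build hg19 (GRCh37). The deposited values were taken as FPKM: the header names no unit, columns do not sum to 1 total, and counts are not given, so no counting interval is possible. Strand is not stated, so overlapping and antisense genes are uncertain. Rows reaching 1 FPKM in 3 or more libraries were tested on log2(FPKM + 1) with limma 3.58.1 (R 4.3.3), in 1 fit of 4 groups with 8 residual and 1.26 prior degrees of freedom and Benjamini-Hochberg adjustment over 30712 rows. The fit was tested on simulated data. The 37 members, the role groups and the further lists were chosen with earlier results of these data known. Every member is named, and up to 4 called genes of each further list in each comparison with control, by smallest adjusted p; some genes chosen by this rule are not reported here. Alternatives were a pseudocount of 0.1, no filter, at least 5 FPKM, median-ratio scaling, compared groups alone, array weights, rows of 1 symbol summed and each library left out. Leaving out the libraries with a falling GC trend and correcting for GC content and length (10220 rows, 34 members) were added after seeing the data. The adjusted p of the corrected fit is over its own 10220 rows. Groups came from the labels, and replicate numbers follow record order.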

Additional observations from a re-analysis of the deposited data

How the results depend on the processing

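No paired analysis was possible because the labels give no replicate numbers. The count of called members moved beyond 1.5 times its value as follows, given without the share of all rows called in each fit. After reversine against control (2) it was 0 with the compared groups alone, 13 with array weights, 7 without the 4 libraries whose levels fall with GC content and 12 after the GC and length correction. After BafA1 against control (6) it was 18 with array weights and 16 after the correction, and after MG132 against control (16) it was 25 with array weights. Between reversine and BafA1 (7) it was 0 with the groups alone, 20 with array weights, 3 without the 4 libraries whose levels fall with GC content and 19 after the correction. Between reversine and MG132 (11) it was 17 with median-ratio scaling, 3 with the groups alone, 28 with array weights and 23 after the correction. With each library left out in turn the counts ran from 1 to 4, 3 to 8 and 11 to 22 against control, from 3 to 11 and 8 to 20 for reversine against BafA1 and MG132, and from 21 to 25 between BafA1 and MG132. Median-ratio scaling moved the split between reversine and MG132 from 8 higher and 3 lower to 16 higher and 1 lower; it moved the median of all rows there from -0.01 to 0.14. Of the values of single members under alternatives, 4292 stayed on their side of the threshold, 195 gained and 139 lost a call, and none reversed; the cause was not tested. Depth is unknown beyond its relative size. CA12, PDK3 and EGLN3 lie near the filter, and ANGPTL4 lies under 1 FPKM after MG132.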
